A study of Mus musculus with 5 samples.

Results

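The ligands and receptors that steer growing axons were followed across 5 mouse cell lines. The members were all genes of the deposited expression table whose symbols belong to the Eph receptors, ephrins (Efn), semaphorins of classes 3 to 7 (Sema), plexins (Plxn), neuropilins (Nrp1, Nrp2), Slits, Robos, netrins (Ntn), the Unc5 receptors and Dcc. These are 69 of the 21437 named genes of the table. The rule matched symbols alone, but it was chosen with earlier results of these data known. RNA came from NIH3T3, an embryonic fibroblast line of the Swiss strain, and from 4 pituitary lines of CB6F1/J mice. Of these, αT1–1 is labelled an immature gonadotrope line of embryonic stage, αT3–1 an intermediate gonadotrope line of embryonic stage, LβT2 a mature gonadotrope line and TαT1 a thyrotrope line of mature stage. All 4 pituitary lines were grown from tumours of mice that carry a transgene for the SV40 T-antigen, and no line was treated before it was harvested below confluence. Each stage or cell type is thus represented by 1 immortalized line.

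In development, secreted or cell-bound guidance ligands meet receptors on the tip of an axon, which then turns towards or away from the source. Ephrins on one cell bind Eph receptor tyrosine kinases on its neighbour, semaphorins bind plexins (those of class 3 mostly through neuropilins), Slits bind Robos, and netrin-1 binds Dcc and the Unc5 receptors. Outside the nervous system the same families act in vessel growth, tissue boundaries, adhesion and migration.

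The table holds 1 column of RPKM values (reads divided by the gene's length in kilobases and scaled to 1 M reads of the library) per line, so there is no spread between replicates, and no difference below has a replicate check or a p-value. A gene counted as expressed from 1 RPKM upwards. It was called higher or lower in a comparison where the difference of log2(RPKM + 1) reached 2, a 4-fold difference on that scale, among genes expressed in at least 1 of the lines compared. A member that entered a comparison through 1 line only differed by the way it entered, though not always 4-fold. Counts of called members are therefore descriptions and stand beside the share of all genes called by the same rule. The columns rest on between 14.2 M (NIH3T3) and 20.7 M reads (αT3–1; M, 1000000), with 20.2 M for αT1–1, 18.7 M for LβT2 and 18.8 M for TαT1, as the steps between low values show. Whole reads could be recovered for 62 of the 69 members, and intervals of RPKM (exact Poisson) and of ratios (exact binomial) are 95% intervals that cover counting error only. In bulk RNA, fewer cells that express a gene and less RNA per cell cannot be told apart.

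The labels were set against marker genes. Cga, the hormone subunit shared by LH, FSH and TSH, stood at 0.102 RPKM in NIH3T3 and between 603 and 12968 RPKM in the pituitary lines. The receptor gene Gnrhr was expressed only in αT3–1 (206 RPKM) and LβT2 (72.3 RPKM). Nr5a1 was likewise expressed only there (162 and 265 RPKM), with 0.687 RPKM in αT1–1. Lhb was expressed only in LβT2 (23.3 RPKM), while Fshb was at 0 in all 5 lines. Thus αT1–1 expressed 0 of the 4 gonadotrope markers. The study describes αT1–1 as a progenitor of gonadotropes, thyrotropes or both. Tshb was expressed only in TαT1 (58.5 RPKM). The other thyrotrope markers were broader. Pou1f1 (88.0 RPKM) and Dio2 (20.9 RPKM) were highest in TαT1 but stood at 3.21 and 17.1 RPKM in αT1–1, and Gata2 was higher in LβT2 (78.8 RPKM) than in TαT1 (51.7 RPKM), with 25.9 RPKM in αT1–1. Of 8 fibroblast markers, 6 were expressed in NIH3T3 and 1 or 2 in each pituitary line, with Lum at 0 throughout and Thy1 at 191 RPKM in TαT1.

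TαT1 expressed the most guidance genes. There 47 of the 69 members (68.1%) were at 1 RPKM or more, beside 50.5% of all genes. The other lines lay closer to the share of all genes: 38 members (55.1%) beside 53.4% in αT3–1, 37 members (53.6%) beside 51.4% in LβT2, 36 members (52.2%) beside 50.1% in αT1–1 and 29 members (42.0%) beside 44.8% in NIH3T3. Expressed members were mostly low. Their median was 5.23 RPKM in αT1–1, 3.42 in αT3–1, 6.14 in LβT2, 4.21 in TαT1 and 7.43 in NIH3T3, while the median over all expressed genes was between 12.5 and 13.5 RPKM. At 10 RPKM or more there were 12 members in αT1–1, 6 in αT3–1, 14 in LβT2, 11 in TαT1 and 13 in NIH3T3, which is 15.8% to 44.8% of the expressed members, beside 56.4% to 56.8% of all expressed genes. The excess in TαT1 was one of low levels: at a minimum of 5 RPKM, 22 members (31.9%) were expressed there, beside 36.5% of all genes.

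Guidance genes were seldom shared by all lines and seldom silent in all. Of the 69 members, 15 (21.7%) were expressed in all 5 lines, 44 (63.8%) in 1 to 4 lines and 10 (14.5%) in none. Over all genes these shares were 37.9%, 24.6% and 37.5%. The 15 shared members were the ephrins Efna1, Efna3, Efnb1 and Efnb2, the receptor Ephb2, the plexins Plxna1, Plxna2, Plxna3, Plxnb2 and Plxnd1, and the semaphorins Sema3f, Sema4b, Sema4c, Sema6b and Sema6c. The 10 members under 1 RPKM in every line were Dcc, Epha1, Epha6, Ntn5, Plxnb3, Robo2, Robo3, Robo4, Sema3d and Unc5d, of which Robo2 was nearest the limit with 0.910 RPKM in TαT1. Another 11 members were expressed in a single line.

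**Figure D1:**
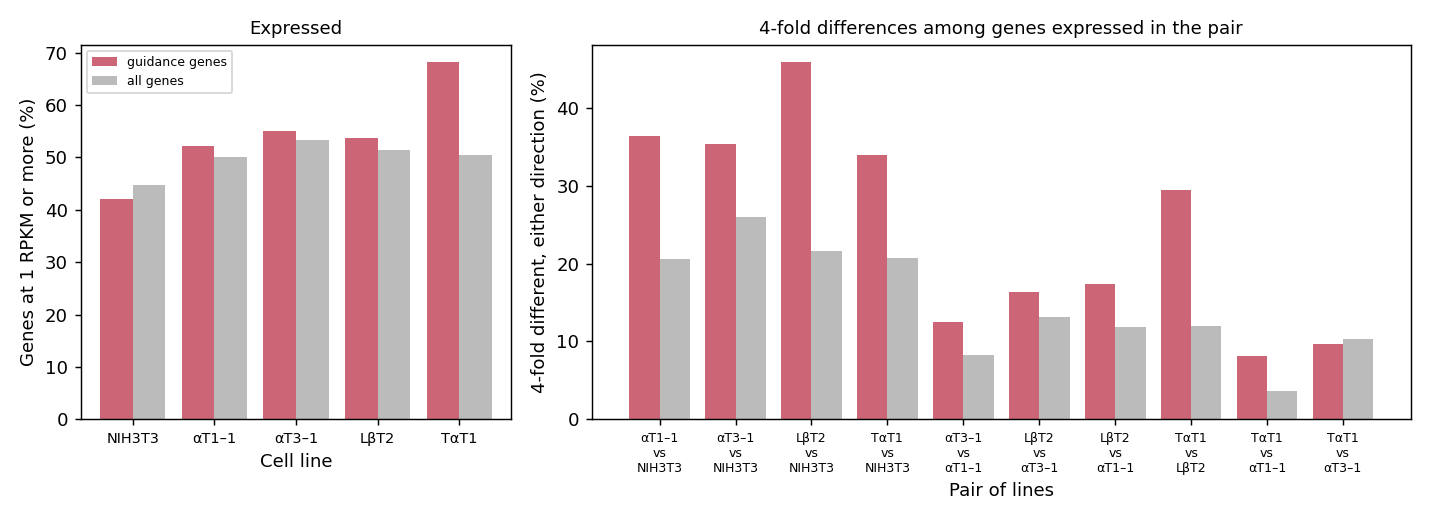
Left, percent of the 69 guidance genes and of all 21437 genes at 1 RPKM or more in each of the 5 lines. Right, percent of the genes expressed in a pair of lines that differed 4-fold in either direction on log2(RPKM + 1). The guidance bar stands above the bar of all genes in 9 of the 10 pairs, the exception being TαT1 against αT3–1 with 9.62% beside 10.3%.

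Pairwise differences were larger for guidance genes than for the table as a whole in most pairs. Between LβT2 and NIH3T3, 45.8% of the members expressed in the pair differed 4-fold in either direction, beside 21.6% of all genes. The share was 36.4% beside 20.6% for αT1–1, 35.4% beside 25.9% for αT3–1 and 34.0% beside 20.7% for TαT1, each against NIH3T3. Among the pituitary lines the widest share was that of TαT1 against LβT2, with 29.4% of members beside 12.0% of all genes. It was 17.4% beside 11.9% for LβT2 against αT1–1, 16.3% beside 13.2% for LβT2 against αT3–1 and 12.5% beside 8.20% for αT3–1 against αT1–1. TαT1 and αT1–1 were closest, with 8.16% beside 3.61%, and for TαT1 against αT3–1 the members (9.62%) did not exceed all genes (10.3%). The 10 pairs share columns and are not independent of each other.

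Set against NIH3T3, the members did not move one way. Of the 59 members expressed in at least 1 line, 4 stood higher in every one of the 4 pituitary lines (6.78%, beside 4.54% of all genes) and 4 were lower in all 4 (6.78%, beside 3.72%). The median member expressed in the pair was higher than in NIH3T3 by 0.92 in LβT2, 0.79 in TαT1, 0.36 in αT1–1 and 0.25 in αT3–1 on the log2(RPKM + 1) scale. For all genes the medians were 0.37, 0.28, 0.29 and 0.38 in that order, so the deposited scale places pituitary values slightly above those of NIH3T3 in general. Over all 69 members, those not expressed included, the medians were 0.06, 0.54, 0.22 and 0.11.

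The 4 members higher in every pituitary line were Unc5a, Plxnb1, Efna2 and Sema4g. Unc5a, a netrin-1 receptor that mediates repulsion, stood at 12.9 RPKM in αT1–1, 14.5 in αT3–1, 45.4 in LβT2, 4.21 in TαT1 and 0 in NIH3T3 (0 reads). It was highest in LβT2, 3.13-fold (interval 2.93 to 3.35) above αT3–1, and against a floor of 3 reads in NIH3T3 even the lowest pituitary line, TαT1, was at least 78.9-fold higher. Plxnb1, the receptor of Sema4d, stood at 5.53 RPKM in αT1–1, 9.30 in αT3–1, 9.97 in LβT2, 19.2 in TαT1 and 0.0245 in NIH3T3. Only 3 reads lay behind the NIH3T3 value, so the ratio of αT1–1 to NIH3T3, 226, has the interval 77.0 to 1096. Efna2, an ephrin-A ligand tethered to the membrane, stood at 3.60 RPKM in αT1–1, 6.43 in αT3–1, 8.88 in LβT2, 6.01 in TαT1 and 0.0330 in NIH3T3 (1 read). Sema4g, a transmembrane semaphorin, stood at 24.3 RPKM in αT1–1, 11.3 in αT3–1, 3.81 in LβT2, 8.08 in TαT1 and 0.0653 in NIH3T3. The lowest pituitary value of these 4 genes was 3.60 RPKM and the highest NIH3T3 value 0.0653 RPKM. Under quantile normalization of the columns, Efna2 and Sema4g no longer reached 4-fold in every line, and with a pseudocount of 5 in place of 1 the count was 0.

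The 4 members lower in every pituitary line were the genes led by NIH3T3, that is, 4-fold higher there than in each other line. Ephb4, the ephrin-B2 receptor known from venous endothelium, stood at 0.272 RPKM in αT1–1, 0.576 in αT3–1, 2.32 in LβT2, 1.58 in TαT1 and 47.6 in NIH3T3 (interval 45.9 to 49.3). NIH3T3 was 20.5-fold (17.7 to 23.9) above LβT2, the next line. Sema3f, a secreted semaphorin that binds Nrp2, stood at 3.95 RPKM in αT1–1, 7.58 in αT3–1, 1.26 in LβT2, 4.89 in TαT1 and 46.6 in NIH3T3. Its nearest line was αT3–1, with NIH3T3 6.15-fold (5.60 to 6.77) higher. Epha2, a receptor of ephrin-A1, stood at 3.81 RPKM in αT1–1, 0.483 in αT3–1, 0.988 in LβT2, 2.28 in TαT1 and 35.9 in NIH3T3. Sema3b, a further secreted semaphorin, stood at 0.158 RPKM in αT1–1, 0.197 in αT3–1, 0.0156 in LβT2, 0.247 in TαT1 and 11.1 in NIH3T3. In NIH3T3 the fibroblast markers summed to 4697 RPKM, beside 3.87 to 215 RPKM in the pituitary lines, and their part in these 4 differences cannot be told apart from the line.

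Across the 5 lines, 8 of the 59 members were led by 1 line (13.6%, beside 8.36% of all genes). Of these, 4 were led by NIH3T3 (3.72% of all genes), 1 by αT3–1 (1.35%), 3 by LβT2 (2.42%), 0 by αT1–1 (0.269%) and 0 by TαT1 (0.604%). Under quantile normalization Robo1 was led by TαT1. Ephb6, an Eph receptor whose kinase domain is inactive, was the one led by αT3–1. It stood at 0.131 RPKM in αT1–1, 17.7 in αT3–1 (16.8 to 18.6), 0.0428 in LβT2, 0.0282 in TαT1 and 0 in NIH3T3 (0 reads). The αT3–1 value rests on 1376 reads and the others on 0 to 10 reads, so that αT3–1 was 135-fold (73.0 to 281) above αT1–1. The 3 members led by LβT2 were Sema7a, Slit1 and Slit3. Sema7a, a semaphorin bound to the membrane by a lipid anchor, stood at 0.905 RPKM in αT1–1, 3.88 in αT3–1, 25.8 in LβT2 (24.6 to 27.1), 1.67 in TαT1 and 0.857 in NIH3T3. LβT2 was 6.66-fold (5.84 to 7.61) above αT3–1. Slit3, a secreted Robo ligand, stood at 0.643 RPKM in αT1–1, 0.0194 in αT3–1, 13.8 in LβT2 (13.0 to 14.6), 0.765 in TαT1 and 0.0281 in NIH3T3. LβT2 was 18.0-fold (14.2 to 23.2) above TαT1, the next line. Slit1, its relative, stood at 0.141 RPKM in αT1–1, 0.692 in αT3–1, 7.34 in LβT2, 0.203 in TαT1 and 0.0536 in NIH3T3, with no reads recovered.

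**Figure D2:**
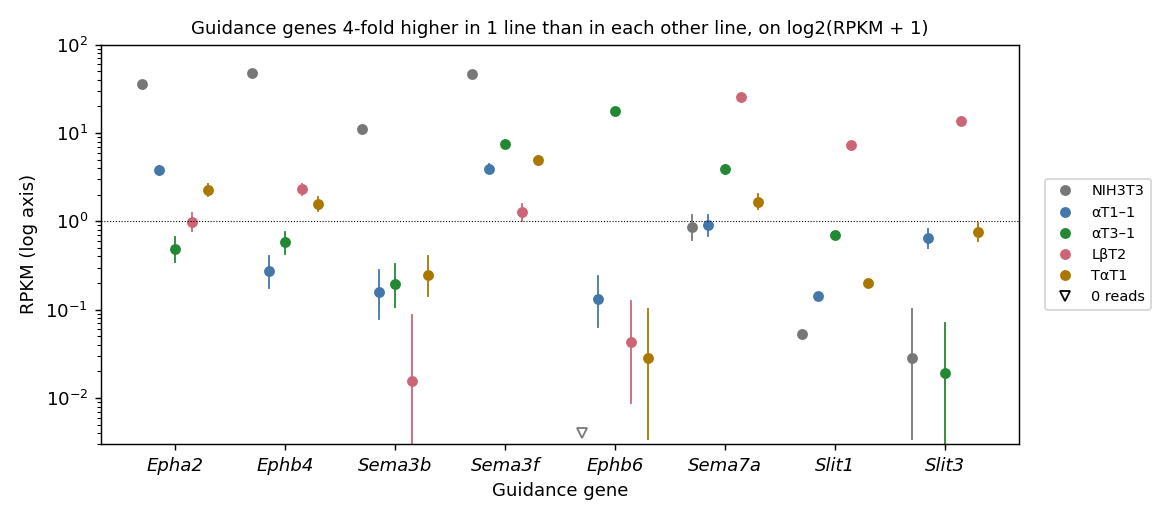
RPKM (log axis) of the 8 guidance genes that were 4-fold higher in 1 line than in each other line on the log2(RPKM + 1) scale. Each point is the single column of 1 line, vertical lines are 95% exact Poisson intervals of the recovered reads (none for Slit1, for which reads were not recovered), the open triangle marks 0 reads and the dotted line marks 1 RPKM. The leading line lies at 7.34 RPKM or more in each gene, and the next line at 7.58 RPKM (Sema3f in αT3–1) or less.

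The promoter windows of Ephb4, Ephb6, Sema7a and Unc5a are shown because these genes were high in 1 line, or in LβT2 above the rest, and because their windows end before the first annotated transcript. Each runs 5′ to 3′ on the plus strand of GRCm38.p6 up to the base before the gene (RefSeq starts): chr5:137349859-137350108 for Ephb4, chr6:41605261-41605481 for Ephb6, chr9:57939862-57940111 for Sema7a and chr13:54949161-54949410 for Unc5a. Capitals mark the GC box, GGGCGG or its complement CCGCCC.
Ephb4: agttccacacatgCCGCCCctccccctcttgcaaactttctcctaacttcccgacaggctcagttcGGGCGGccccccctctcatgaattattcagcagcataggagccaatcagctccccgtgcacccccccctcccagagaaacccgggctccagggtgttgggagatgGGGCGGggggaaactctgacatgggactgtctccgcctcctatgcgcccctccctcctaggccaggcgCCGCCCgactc
Ephb6: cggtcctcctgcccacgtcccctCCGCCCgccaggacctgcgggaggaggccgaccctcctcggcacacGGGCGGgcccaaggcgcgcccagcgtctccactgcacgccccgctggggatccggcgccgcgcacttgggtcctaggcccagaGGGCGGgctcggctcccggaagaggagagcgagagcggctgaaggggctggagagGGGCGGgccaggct
Sema7a: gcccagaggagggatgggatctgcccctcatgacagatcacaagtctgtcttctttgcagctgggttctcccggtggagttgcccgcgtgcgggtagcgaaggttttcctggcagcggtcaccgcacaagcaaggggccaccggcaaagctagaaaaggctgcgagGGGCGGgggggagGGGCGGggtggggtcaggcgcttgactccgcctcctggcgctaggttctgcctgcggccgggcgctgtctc
Unc5a: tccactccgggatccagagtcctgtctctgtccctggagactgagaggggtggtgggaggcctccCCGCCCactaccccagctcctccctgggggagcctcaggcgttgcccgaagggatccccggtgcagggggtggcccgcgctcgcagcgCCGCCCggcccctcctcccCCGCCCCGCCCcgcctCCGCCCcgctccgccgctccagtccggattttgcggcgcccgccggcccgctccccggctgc

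The Ephb4 window held 4 GC boxes, that of Ephb6 4, that of Sema7a 2 and that of Unc5a 5, of which a pair shares 1 base. Their GC content was 64.0%, 76.5%, 66.4% and 76.8% in the same order. Of the 69 members, 59 matched a RefSeq promoter entry, of which the 250 bases before the start were searched (the printed Ephb6 window is shortened to 221 bases so that it ends before the first transcript), and 43 of these windows (72.9%) held a GC box on either strand, beside 45.5% of 14445 windows of genes in the table. The median GC content was 64.8% for the members and 56.4% for all windows, so the more frequent GC box goes with a richer base composition. The TATA box TATAAA was in 2 member windows (Efnb2 and Slit2, 3.39%, beside 11.9%) and the E-box CANNTG in 27 (45.8%, beside 61.9%). Motifs of pituitary factors were rare in both sets: the SF1 element CAAGGTCA in 1 member window (Sema4b, 1.69%, beside 1.14%), the PITX element TAATCC in 2 (Robo3 and Robo4, 3.39%, beside 5.77%) and the LIM homeodomain core TAATTA in 3 (Efna1, Epha5 and Robo3, 5.08%, beside 4.31%). All motifs were searched on both strands, TAATCC and TAATTA can overlap, and a match is a description of letters, not of a bound site.

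Among the ephrins, the A and B classes had different high lines. Ephrin-A ligands summed to 29.1 RPKM in αT1–1, 20.2 in αT3–1, 32.1 in LβT2, 14.9 in TαT1 and 58.5 in NIH3T3. Efna1 stood at 12.6 RPKM in αT1–1, 2.50 in αT3–1, 12.2 in LβT2, 1.68 in TαT1 and 31.3 in NIH3T3. Its values in αT1–1 and LβT2 did not differ beyond counting error (ratio 1.04, interval 0.899 to 1.19), and both lay above αT3–1 and TαT1. Efna3 followed the same order at the ends, with 12.4 RPKM in αT1–1, 7.02 in αT3–1, 10.8 in LβT2, 2.73 in TαT1 and 15.8 in NIH3T3. Efna4 stood at 0.124 RPKM in αT1–1, 1.64 in αT3–1, 0.201 in LβT2, 0.366 in TαT1 and 7.43 in NIH3T3. For Efna5, which was not resolved into reads, αT3–1 (2.57 RPKM), NIH3T3 (3.86) and TαT1 (4.12) were high and αT1–1 (0.413) and LβT2 (0.0306) low.

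The ephrin-B ligands, which span the membrane, had their highest sum in LβT2. Their sums were 9.70 RPKM in αT1–1, 6.53 in αT3–1, 33.2 in LβT2, 17.4 in TαT1 and 5.58 in NIH3T3. Efnb1 stood at 4.94 RPKM in αT1–1, 1.94 in αT3–1, 21.8 in LβT2, 6.66 in TαT1 and 3.49 in NIH3T3. LβT2 was 11.2-fold (9.36 to 13.5) above αT3–1 and 3.27-fold (2.93 to 3.66) above TαT1. Efnb2, the ligand of Ephb4, stood at 3.41 RPKM in αT1–1, 3.67 in αT3–1, 6.14 in LβT2, 8.13 in TαT1 and 1.72 in NIH3T3. The αT1–1 and αT3–1 values did not differ beyond counting error (ratio 1.08, 0.918 to 1.26). Efnb3 stood at 1.35 RPKM in αT1–1, 0.917 in αT3–1, 5.22 in LβT2, 2.58 in TαT1 and 0.371 in NIH3T3.

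Of the Eph receptors, different members led in different lines, while Ephb2 alone was expressed in all 5. The EphA receptor with the highest level was Epha2 in NIH3T3, αT1–1 and TαT1, Epha7 in αT3–1 and Epha8 in LβT2. Epha8 stood at 0.136 RPKM in αT1–1, 0.0205 in αT3–1, 23.2 in LβT2, 1.69 in TαT1 and 5.33 in NIH3T3. LβT2 was 4.35-fold (3.89 to 4.88) above NIH3T3 by reads, just short of a 4-fold call on the log2(RPKM + 1) scale (difference 1.93), and 13.7-fold (11.6 to 16.3) above TαT1. Ephb2 stood at 7.84 RPKM in αT1–1, 5.48 in αT3–1, 15.3 in LβT2, 16.0 in TαT1 and 5.60 in NIH3T3. The LβT2 and TαT1 values did not differ beyond counting error (ratio of TαT1 to LβT2 1.05, 0.974 to 1.13). Ephb3 stood at 4.27 RPKM in αT1–1, 0 in αT3–1 (0 reads), 1.12 in LβT2, 5.21 in TαT1 and 9.08 in NIH3T3. Its absence of reads in αT3–1 puts αT1–1 at least 122-fold higher. Apart from Epha2, Ephb4 and Ephb6, given above, the other Eph receptors were under 5 RPKM in every line. The highest of them were Epha5 at 4.71 RPKM in LβT2 and Ephb1 at 2.13 RPKM in αT3–1, and 2 (Epha1, Epha6) were expressed in none.

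Plexins were the most abundant family. Plxnb2, a receptor of class 4 semaphorins, was the highest of the 69 members in every line, at 148 RPKM in αT1–1, 70.5 in αT3–1, 94.1 in LβT2, 87.3 in TαT1 and 53.6 in NIH3T3. No intervals overlapped between neighbouring lines, and αT1–1 was 2.77-fold (2.68 to 2.85) above NIH3T3. Plxna1, a signalling partner of the neuropilins, stood at 15.7 RPKM in αT1–1, 7.48 in αT3–1, 26.0 in LβT2, 19.4 in TαT1 and 35.96 in NIH3T3. Plxnd1, the receptor of Sema3e, stood at 20.4 RPKM in αT1–1, 9.17 in αT3–1, 21.7 in LβT2, 9.70 in TαT1 and 18.4 in NIH3T3. Both were lowest in αT3–1, although for Plxnd1 TαT1 and αT3–1 did not differ beyond counting error (ratio 1.06, 0.979 to 1.14). Plxna4 stood at 1.37 RPKM in αT1–1, 0.803 in αT3–1, 1.94 in LβT2, 5.32 in TαT1 and 0.00558 in NIH3T3. Plxna3 varied less, from 1.71 RPKM in αT1–1 to 5.07 in TαT1, with 2.85 in NIH3T3, 3.17 in αT3–1 and 2.97 in LβT2. Plxna2 varied least, between 2.61 and 3.70 RPKM.

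A further plexin and both neuropilins were nearly silent in LβT2. Plxnc1, a receptor of Sema7a, stood at 5.71 RPKM in αT1–1, 2.83 in αT3–1, 0.0152 in LβT2, 5.22 in TαT1 and 0.00996 in NIH3T3. Its LβT2 value rests on 2 reads, which gives a ratio of TαT1 to LβT2 of 343 with the interval 94.6 to 2839. Nrp1, the co-receptor of Sema3a, stood at 5.89 RPKM in αT1–1, 4.21 in αT3–1, 0.184 in LβT2, 5.48 in TαT1 and 2.48 in NIH3T3. The LβT2 value was 23.0-fold (14.7 to 37.9) below αT3–1 and 29.9-fold (19.2 to 49.2) below TαT1. Nrp2, the co-receptor of Sema3f, stood at 0.268 RPKM in αT1–1, 0.0894 in αT3–1, 0.00661 in LβT2, 10.3 in TαT1 and 23.4 in NIH3T3. Only NIH3T3 and TαT1 thus expressed both neuropilins, and LβT2 expressed neither. Of 6 endothelial markers, Kdr, which encodes a receptor that works with neuropilins, followed the order of Nrp1 among the pituitary lines, with 65.0 RPKM in αT1–1, 20.9 in TαT1, 15.3 in αT3–1 and 0 in LβT2, and was at 0 in NIH3T3. Cdh5 (50.6 RPKM) and Pecam1 (15.2 RPKM) were highest in LβT2 and Tek, Tie1 and Emcn were at or under 0.0677 RPKM in every line, so the list as a whole summed to 65.1 RPKM in αT1–1, 16.5 in αT3–1, 65.8 in LβT2, 22.0 in TαT1 and 0.248 in NIH3T3. Its part in these differences was not tested.

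The secreted class 3 semaphorins were split between the fibroblasts and the pituitary lines. Beside Sema3f and Sema3b, which NIH3T3 led, Sema3a, the collapsin that repels sensory axons, stood at 14.0 RPKM in αT1–1, 0.985 in αT3–1, 14.6 in LβT2, 2.47 in TαT1 and 0 in NIH3T3 (0 reads). The values in αT1–1 and LβT2 did not differ beyond counting error (ratio of LβT2 to αT1–1 1.04, 0.975 to 1.12), and LβT2 was 14.8-fold (12.3 to 18.0) above αT3–1. Sema3g was highest in LβT2 with 4.41 RPKM, and Sema3c, Sema3d and Sema3e did not exceed 1.74 RPKM in any line.

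The class 4 semaphorins, which span the membrane, were more abundant in αT1–1 and TαT1 than in the other lines. All 6 were expressed in those lines, where they summed to 69.5 and 63.0 RPKM, beside 23.6 in NIH3T3, 45.4 in αT3–1 and 35.4 in LβT2. Sema4d, the ligand of Plxnb1, stood at 17.0 RPKM in αT1–1, 8.32 in αT3–1, 3.54 in LβT2, 19.5 in TαT1 and 0.208 in NIH3T3. TαT1 was 5.51-fold (4.86 to 6.27) above LβT2. Sema4a stood at 4.31 RPKM in αT1–1, 0.434 in αT3–1, 0.218 in LβT2, 8.69 in TαT1 and 2.89 in NIH3T3. It was lowest in αT3–1 and LβT2, with TαT1 40.0-fold (23.6 to 73.6) above LβT2. Sema4c, the ligand of Plxnb2, had the opposite high line, with 7.08 RPKM in αT1–1, 12.6 in αT3–1, 18.3 in LβT2, 10.3 in TαT1 and 5.46 in NIH3T3. Sema4f stood at 6.49 RPKM in αT1–1, 2.79 in αT3–1, 3.27 in LβT2, 3.72 in TαT1 and 0.0980 in NIH3T3. Sema4b was broad, with 10.3 RPKM in αT1–1, 9.90 in αT3–1, 6.33 in LβT2, 12.7 in TαT1 and 14.9 in NIH3T3.

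Class 6 was dominated by Sema6b, a ligand of A-type plexins, at 18.1 RPKM in αT1–1, 16.7 in αT3–1, 25.7 in LβT2, 31.2 in TαT1 and 18.8 in NIH3T3. NIH3T3 and αT1–1 did not differ beyond counting error (ratio 1.04, 0.958 to 1.12). Sema6c stood at 14.2 RPKM in αT1–1, 2.02 in αT3–1, 5.01 in LβT2, 4.18 in TαT1 and 3.53 in NIH3T3, highest in αT1–1. Sema6a and Sema6d did not exceed 1.45 RPKM. In class 5, both genes were highest in αT3–1, Sema5b at 4.71 RPKM and Sema5a at 2.33 RPKM.

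**Figure D3:**
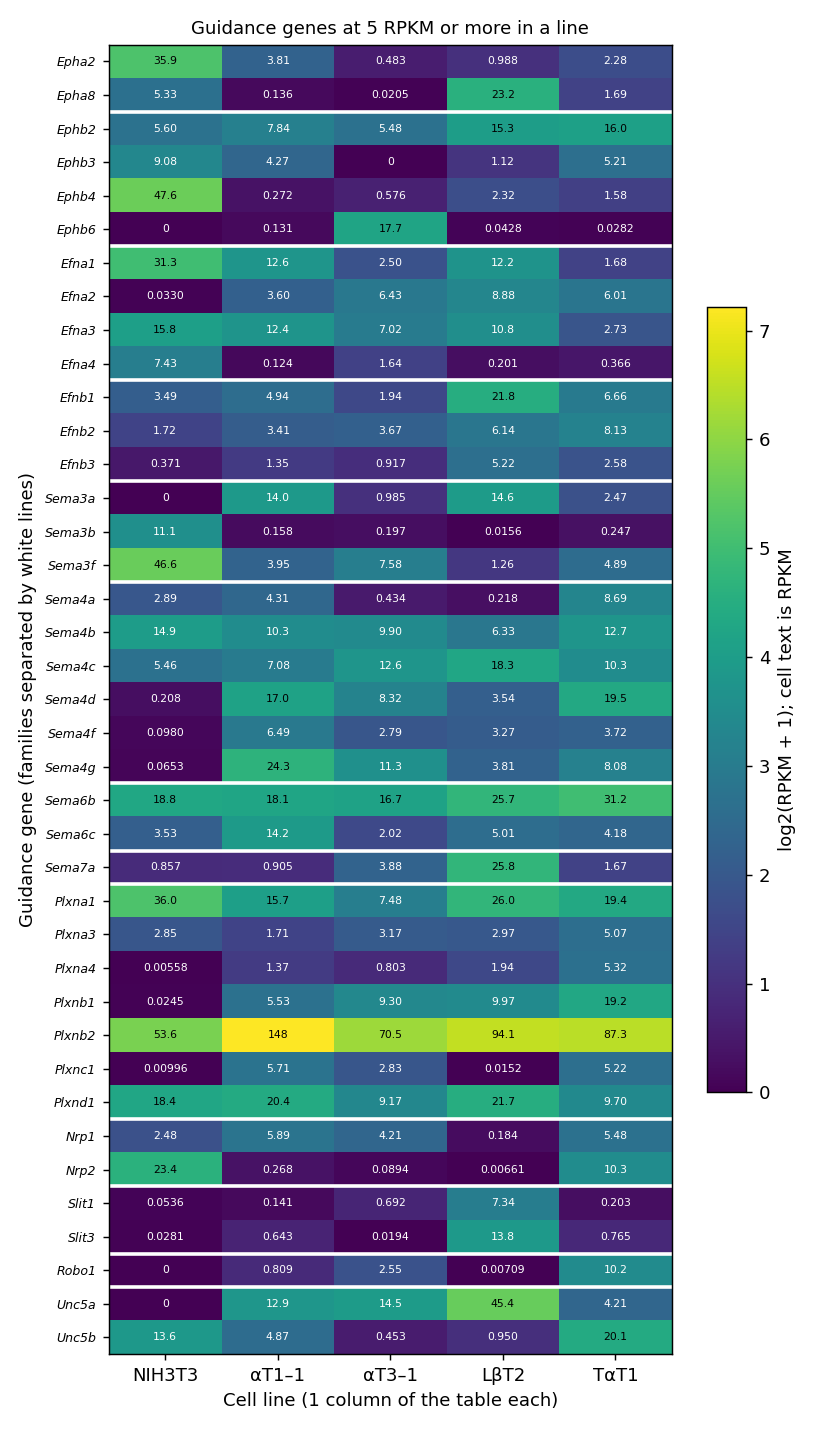
Levels of the 39 guidance genes that reached 5 RPKM in a line, with genes in rows, the 5 lines in columns, colour for log2(RPKM + 1) and the RPKM written in each cell. White lines separate the families in the order EphA, EphB, ephrin-A, ephrin-B, semaphorin classes 3, 4, 6 and 7, plexins, neuropilins, Slits, Robos and Unc5 receptors. Plxnb2 is the brightest row in every line, and the LβT2 column is dark at Plxnc1 (0.0152 RPKM), Nrp1 (0.184), Nrp2 (0.00661) and Robo1 (0.00709).

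Slits and their Robo receptors were high in different lines. Slit2 stood at 4.01 RPKM in αT1–1, 2.63 in αT3–1, 3.47 in LβT2, 4.05 in TαT1 and 0 in NIH3T3 (0 reads). It was the Slit shared by the pituitary lines, and TαT1 and αT1–1 did not differ beyond counting error (ratio 1.01, 0.902 to 1.13). With Slit1 and Slit3 added, Slits summed to 24.6 RPKM in LβT2 and to 0.0817 to 5.02 RPKM in the other lines. Robo1, the only Robo above 1 RPKM in any line, was listed at 0.809 RPKM in αT1–1, 2.55 in αT3–1, 0.00709 in LβT2, 10.2 in TαT1 and 0 in NIH3T3. LβT2, the line with the most Slit RNA, was thus at the low end for Robos, which summed to 0.146 RPKM there and to 11.2 RPKM in TαT1. Robo4, known from endothelium, had 0 or 1 read in every line.

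Netrin-1 was low in LβT2, where the Unc5 receptors and Dcc summed highest, and in αT3–1. It was highest in TαT1, which had the next highest sum of Unc5 and Dcc. This order holds for Unc5 and Dcc alone. It leaves out neogenin (Neo1) and Dscam, which the effector list below holds under netrin signalling. Neo1 stood at 65.0 RPKM in αT1–1, 49.5 in αT3–1, 39.8 in LβT2, 31.3 in TαT1 and 7.57 in NIH3T3. Dscam stood at 7.25 RPKM in αT1–1, 4.78 in αT3–1, 0.0143 in LβT2, 14.1 in TαT1 and 0 in NIH3T3. Ntn1 stood at 1.74 RPKM in αT1–1, 0.0842 in αT3–1, 0.0841 in LβT2, 2.49 in TαT1 and 1.36 in NIH3T3. The αT3–1 and LβT2 values did not differ beyond counting error (ratio 1.00, 0.366 to 2.79). Dcc, the attractive netrin receptor, had at most 12 reads (0.0822 RPKM in TαT1), so that the Unc5 genes made up nearly all of the sum of Unc5 and Dcc: 18.0 RPKM in αT1–1, 15.4 in αT3–1, 47.1 in LβT2, 26.0 in TαT1 and 13.6 in NIH3T3. Unc5b stood at 4.87 RPKM in αT1–1, 0.453 in αT3–1, 0.950 in LβT2, 20.1 in TαT1 and 13.6 in NIH3T3. Among the pituitary lines TαT1 was highest for Unc5b (21.2-fold above LβT2, 17.4 to 26.1) and lowest for Unc5a (LβT2 10.8-fold above TαT1, 9.60 to 12.1). The other end was not reversed, since Unc5a was highest in LβT2 and Unc5b lowest in αT3–1. Of the other netrins, Ntn3 reached 2.45 RPKM in LβT2 and Ntn4 1.86 RPKM in αT3–1, and Ntn5 had 0 to 2 reads.

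Known ligand and receptor pairs were counted within each line. Of 78 pairs, both genes were at 1 RPKM or more for 36 in TαT1, 25 in αT1–1, 19 in NIH3T3, 16 in αT3–1 and 16 in LβT2. The share of members expressed at all was 68.1%, 52.2%, 42.0%, 55.1% and 53.6% in that order. Pair counts depend on that share, and no comparison with other gene pairs was made. In all 5 lines the complete pairs included Efnb1 with Ephb2, Efnb2 with Ephb2 and Sema4c with Plxnb2. The ephrin-A and EphA class gave 16 of its 40 pairs in TαT1, beside 5 to 9 in the other lines. This class crosses every listed ligand with every listed receptor, so an expressed gene enters several pairs. Slit2 with Robo1 was the only complete Slit pair and occurred in αT3–1 and TαT1. No pair of netrin-1 with a receptor was complete in αT3–1 or LβT2. In LβT2 the only complete pair of a class 3 semaphorin was Sema3e with Plxnd1, while class 3 ligands summed to 22.3 RPKM there and neuropilins to 0.190 RPKM. For Sema7a and Plxnc1, LβT2 held 25.8 RPKM of ligand and 0.0152 RPKM of receptor, and αT1–1 held 0.905 RPKM of ligand and 5.71 RPKM of receptor. RNA in the same line does not show that both proteins are made or meet, and the pair list is from general knowledge.

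**Figure D4:**
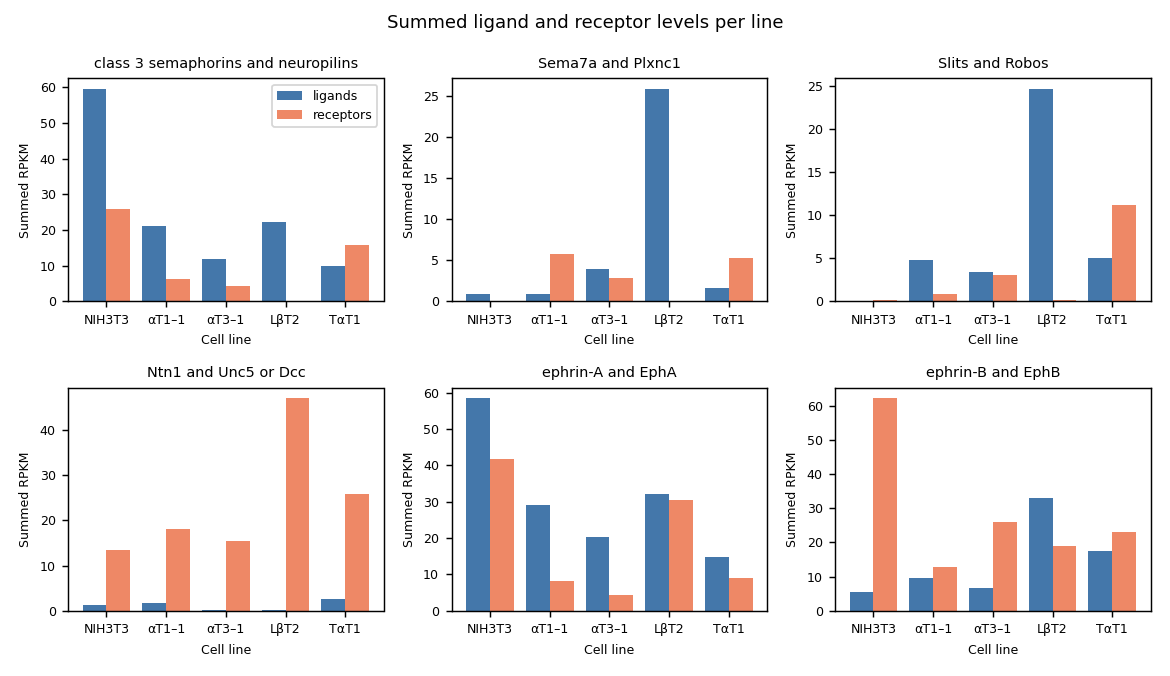
Summed RPKM of ligands and receptors in each line for 6 systems, with 1 bar of each kind per line and axes that start at 0 and differ between panels. LβT2 shows class 3 semaphorins (22.3 RPKM) with almost no neuropilin (0.190 RPKM). That panel leaves out plexins, of which LβT2 held Plxna1 at 26.0 RPKM and Plxnd1 at 21.7 RPKM. LβT2 also shows Sema7a with almost no Plxnc1 (25.8 and 0.0152 RPKM), the only receptor counted for it, and Slits with almost no Robo (24.6 and 0.146). For netrin-1 it shows Unc5 and Dcc receptors with almost no ligand (47.1 and 0.0841). The netrin-1 panel leaves out Neo1, which stood at 39.8 RPKM in LβT2.

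Among the lines labelled gonadotrope, αT3–1 differed from αT1–1 in 6 of the 48 members expressed in the pair. Higher in αT3–1 were Ephb6 and Sema5b (4.17%, beside 5.41% of all genes), and lower were Ephb3, Sema3a, Sema6c and Unc5b (8.33%, beside 2.79%). Sema5b, a transmembrane semaphorin, was 15.5-fold (10.6 to 23.6) higher by reads. Unc5b was 10.7-fold (8.14 to 14.4) higher in αT1–1 than in αT3–1, and Sema6c was higher by a ratio with the interval 5.77 to 8.56. The median difference, αT3–1 minus αT1–1, was −0.28 over these 48 members (all genes 0.04) and −0.00032 over all 69 members. Under quantile normalization Sema5b was no longer called.

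LβT2 and αT3–1 differed in 8 members. Of 49 members, 6 were higher in LβT2 (Efnb1, Epha8, Sema3a, Sema7a, Slit1 and Slit3, 12.2%, beside 6.36% of all genes) and 2 were lower (Ephb6 and Nrp1, 4.08%, beside 6.83%). The 6 higher genes are 5 ligands and 1 receptor and the 2 lower genes are receptors, where 29 of the 49 members tested are ligands. The balance of higher and lower turned with the pseudocount, to 11 and 13 at 0.1 and to 1 and 1 at 5, and at a 2-fold threshold it was 17 and 15. Under quantile normalization Nrp1 was no longer called. Against αT1–1, 4 of 46 members were higher in LβT2 (Epha8, Sema7a, Slit1 and Slit3, 8.70%, beside 6.73%) and 4 were lower (Nrp1, Plxnc1, Sema4a and Sema4g, 8.70%, beside 5.16%). Sema3a was called against αT3–1 alone, as its levels in αT1–1 and LβT2 were alike within counting error. The comparisons share the LβT2 column.

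Of the 4 pairs of pituitary lines compared, the thyrotrope line TαT1 and the mature gonadotrope line LβT2 had the most called members. Of 51 members, 8 were higher in TαT1 (Efna5, Nrp1, Nrp2, Plxnc1, Robo1, Sema4a, Sema4d and Unc5b, 15.7%, beside 5.50% of all genes). Another 7 were lower (Efna1, Epha8, Sema3a, Sema7a, Slit1, Slit3 and Unc5a, 13.7%, beside 6.55%). With a pseudocount of 5 these counts fell to 1 and 3. Receptors or co-receptors made up 5 of the 8 higher genes (Nrp1, Nrp2, Plxnc1, Robo1 and Unc5b), and ligands 5 of the 7 lower ones (Efna1, Sema3a, Sema7a, Slit1 and Slit3), where 29 of the 51 members tested are ligands and 22 receptors. Elavl3, a neuronal RNA-binding protein gene, was likewise high in TαT1 and low in LβT2, at 19.2 RPKM in αT1–1, 45.0 in αT3–1, 0.171 in LβT2, 67.0 in TαT1 and 0.0140 in NIH3T3. The neuron list (Elavl3, Elavl4, Tubb3 and Dcx were in the table) summed to 68.5 RPKM in αT1–1, 261 in αT3–1, 111 in LβT2, 361 in TαT1 and 64.2 in NIH3T3, mostly from Tubb3, with Dcx at 0 and Elavl4 at 0.740 RPKM in TαT1. Its part in these differences was not tested.

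Further guidance genes were read from a list of 55 symbols, of which 53 were in the table. The list holds signalling genes downstream of the receptors and also other guidance receptors and ligands, such as Rgma, Ntng2 and Flrt1. All genes of the list are called effectors here for short. Of these, 45 were expressed in αT1–1, 45 in αT3–1, 42 in LβT2, 47 in TαT1 and 35 in NIH3T3, or 66.0% to 88.7%, beside 44.8% to 53.4% of all genes. Higher in each of the 4 pituitary lines were 2 of 52 (3.85%, beside 4.54% of all genes), Crmp1 and Dpysl5, which encode collapsin response mediators. Lower was 1 (1.92%, beside 3.72%), Rgma, a repulsive ligand of neogenin. Crmp1 stood at 86.4 RPKM in αT1–1, 196 in αT3–1, 103 in LβT2, 113 in TαT1 and 0 in NIH3T3. Dpysl5 stood at 8.30 RPKM in αT1–1, 15.8 in αT3–1, 21.2 in LβT2, 22.9 in TαT1 and 0.0140 in NIH3T3. Rgma ran the other way, with 1.76 RPKM in αT1–1, 1.46 in αT3–1, 0.0598 in LβT2, 5.13 in TαT1 and 84.4 in NIH3T3.

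Among the pituitary lines the effectors split in both directions. Against αT1–1, αT3–1 was higher in 3 of 49 effectors (among them Ntng2 and Plxdc1) and lower in 4, where the shares of all genes are those given for the same comparisons above. Ntng2, the membrane-anchored netrin-G2, stood at 0.635 RPKM in αT1–1, 140 in αT3–1, 14.1 in LβT2, 12.0 in TαT1 and 0 in NIH3T3, and was by far highest in αT3–1. Mical1, an actin-oxidizing enzyme that acts below plexins, stood at 11.4 RPKM in αT1–1, 0.109 in αT3–1, 23.6 in LβT2, 3.07 in TαT1 and 0.828 in NIH3T3. Gpc1, a glypican that binds Slit, Rnd1, a GTPase that binds plexins, and Dpysl3 were likewise called lower in αT3–1. Against αT3–1, LβT2 was higher in 4 of 48 effectors (Mical1, Rnd1, Gpc1 and Flrt1) and lower in 5, among them Ntng2, Vav3 and Chn1. Against αT1–1, LβT2 was higher in 6 of 49 (among them Plxdc1, Ablim3, Trim9, Ntng2 and Flrt1) and lower in 4 (Dpysl3, Arhgef11, Chn1 and Dscam). Plxdc1, a plexin domain protein that is not itself a plexin, stood at 2.47 RPKM in αT1–1, 17.7 in αT3–1, 39.1 in LβT2, 2.96 in TαT1 and 0.195 in NIH3T3. TαT1 was higher than LβT2 in 5 of 50 effectors (Dpysl3, Chn1, Dscam, Flrt2 and Rgma) and lower in 4 (among them Plxdc1, Mical1 and Trim9). Dpysl3, a collapsin response mediator, stood at 30.3 RPKM in αT1–1, 5.79 in αT3–1, 0.0691 in LβT2, 63.2 in TαT1 and 5.01 in NIH3T3. Chn1, a Rac inhibitor that acts below EphA4, stood at 6.84 RPKM in αT1–1, 10.7 in αT3–1, 0.0435 in LβT2, 21.4 in TαT1 and 1.96 in NIH3T3. Both were highest in TαT1 and lowest in LβT2.

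Positions on GRCm38 (GENCODE release M21) place few members side by side. Sema3b (chr9:107597674-107609229) and Sema3f (chr9:107681500-107710475), both led by NIH3T3, lie 72.3 kb apart on the minus strand. Efna1, Efna3 and Efna4 lie in a row on chromosome 3, with gaps of 32.8 and 10.4 kb, and each had its highest value in NIH3T3. Epha8 and Ephb2 lie 93.4 kb apart on chromosome 4 and differed in breadth, since Ephb2 was expressed in all 5 lines and Epha8 in 3. Of the other genes described first, Ephb4 lies at chr5:137350109-137378669, Ephb6 at chr6:41605482-41620509, Sema7a at chr9:57940112-57962865, Unc5a at chr13:54949411-55006018, Slit3 at chr11:35121224-35708507, Slit1 at chr19:41600257-41743665 and Epha2 at chr4:141301240-141329384. The lengths recovered with the reads were close to the longest coding transcript for most members (median ratio 0.999, from 0.265 for Epha10 to 1.62 for Nrp1). Some lay well below it, among them Ephb2 (0.438), Ntn5 (0.448) and Efna3 (0.518). Where a recovered length is a fraction of the true one, the reads are too few and the intervals too wide. The library kit does not mark the strand. Exons of other annotated genes overlapped 23.4% of the exon bases of Ntn5, 14.1% of Efna3, 10.7% of Plxna1 and 10.5% of Efna4, and their reads cannot be told apart from those of the overlapping gene there. Words of 36 bases shared with other genes made up 26.3% of Ntn5 and 10.3% of Efna3, and less than that in every other member.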

How the data were processed

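RNA of 5 mouse cell lines was analysed, with 1 column per line. The authors deposited RPKM values, computed from 36 bp single-end reads of TruSeq v2 libraries aligned with CASAVA (no version given). The methods of the study name 2 libraries per line; how they were joined into 1 column, the genome build, the annotation and the treatment of reads with several alignments were not given in the sources used here. Of 21476 entries, 25 whose symbol had turned into a date were dropped, and for 9 repeated symbols the entry with the higher mean was kept. Values below 1 RPKM fell, in every column, on whole multiples of a step (tolerance 0.05), which gave the read totals. A gene had its reads recovered at the smallest length from 150 to 15000 bp that made all 5 values whole and exceeded its annotated exons by at most 5%. Reads were not recovered for Efna5, Nrp2, Robo1, Sema4g, Sema5a, Sema6a and Slit1. The floor for a gene with 0 reads was 3 reads. Differences used a pseudocount of 1. Members that reached 5 RPKM in a line were named with all 5 values, and effectors where called at 10 RPKM or more with the largest differences, up to 4 per comparison; other names serve a family, a pair or a short count, and some genes of the lists are not reported here. The members, gene lists, pairs and rules were chosen with earlier results of these data known. Alternatives were other pseudocounts, thresholds and minimums, median-of-ratios scaling and quantile normalization. The steps were tested on simulated data. Promoter sequences are from RefSeq (GRCm38.p6). Versions were SciPy 1.17.1, pandas 2.3.3, NumPy 2.4.6 and Python 3.11.15.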

Additional observations from a re-analysis of the deposited data

How the results depend on the processing

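With 1 column per line no replicate could be left out and no p-value could be computed. No paired analysis was possible, since each group is 1 line with 1 column and the labels name no unit shared between groups. Median-of-ratios scaling left all 16 counts within 1.5 times of the values above. It lost no 4-fold call and gained Sema4d as lower in LβT2 than in αT1–1, while the expressed members went from 47 to 46 in TαT1 and from 29 to 30 in NIH3T3. Over genes expressed in at least 1 of the 5 lines, it brought the median gene, 0.23 to 0.31 higher in the pituitary lines than in NIH3T3 as deposited, to 0.02 to 0.07. The medians given earlier are over genes expressed in each pair. Quantile normalization gave 2 members higher in all 4 pituitary lines (Plxnb1 and Unc5a). It also lost Sema5b as higher in αT3–1 than in αT1–1 and Nrp1 as lower in LβT2 than in αT3–1, and gained Efna4 as led by NIH3T3, Robo1 as led by TαT1, Efna1 and Sema4a as lower in αT3–1 than in αT1–1, Efna1 as higher in LβT2 than in αT3–1 and Sema4d as lower in LβT2 than in αT1–1. At 0.5 RPKM the expressed counts stayed within 1.5 times. At 5 RPKM they were 18 in αT1–1, 15 in αT3–1, 21 in LβT2, 22 in TαT1 and 18 in NIH3T3, so TαT1 no longer stood apart from LβT2, and every line lay below the share of all genes (21.7% to 31.9% of members, beside 32.4% to 40.5%).

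The counts of 4-fold members moved most with the pseudocount and the threshold. With a pseudocount of 0.1, 13 members were higher in all 4 pituitary lines, 7 higher and 9 lower in αT3–1 than in αT1–1, 11 higher and 13 lower in LβT2 than in αT3–1, 9 higher and 10 lower in LβT2 than in αT1–1, and 15 higher in TαT1 than in LβT2. With a pseudocount of 5, 0 were higher in all 4 pituitary lines, 1 higher and 0 lower in αT3–1 than in αT1–1, 1 higher and 1 lower in LβT2 than in αT3–1, 2 higher and 0 lower in LβT2 than in αT1–1, 1 higher and 3 lower in TαT1 than in LβT2, and 4 were led by 1 line. At a 2-fold threshold, 8 were higher and 7 lower in all 4 pituitary lines, 8 higher and 12 lower in αT3–1 than in αT1–1, 17 higher and 15 lower in LβT2 than in αT3–1, 13 higher and 13 lower in LβT2 than in αT1–1, 17 higher and 12 lower in TαT1 than in LβT2, and 20 were led by 1 line. With a minimum of 5 RPKM, 1 was higher and 2 were lower in αT3–1 than in αT1–1, and 1 was lower in LβT2 than in αT3–1. Over the same comparisons, the shares of all genes called were 4.84% to 13.8% with a pseudocount of 0.1, 0.984% to 4.10% with 5, 8.63% to 25.3% at the 2-fold threshold and 3.31% to 9.76% with the 5 RPKM minimum. The low levels of most members limit these counts, since a small value weighs against any pseudocount.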
